A study of Mus musculus with 10 samples.

Results

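Cholesterol and fatty acid synthesis genes were followed through the transcriptomes of CD4+ T cells from tumour-bearing mice. The set was a named list of 31 genes: 17 enzymes and carriers of the mevalonate and sterol branch, 7 genes of the fatty acid branch, 5 sensors and transcription factors, and 2 efflux transporters. Members were found by gene symbol, and 31 of 31 were among the 17457 genes of the expression table. Levels are in FPKM, a fragment count scaled to transcript length and library total. A gene was tested when it reached 1 FPKM in at least 4 libraries, which left 10743 genes and 30 members, with Scd1 below this limit.

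Cells make cholesterol from acetyl-CoA through mevalonate, farnesyl diphosphate and squalene, and make fatty acids from acetyl-CoA through malonyl-CoA. The SREBP transcription factors, encoded by Srebf1 and Srebf2, are held in the endoplasmic reticulum with Scap by the Insig proteins while sterol is plentiful, and move to the nucleus when it is scarce. The nuclear receptor LXR works in the other direction: bound by oxysterols, it raises the efflux transporters Abca1 and Abcg1 and also Srebf1. T cells that have been activated to divide need both sterols and fatty acids for new membrane.

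The 10 libraries fell into 6 labelled TEST and 4 labelled CONTROL. TEST 1, TEST 2 and TEST 3 were K14-TSLP +/tg, TSLPR -/- hosts on C57BL/6 that received Ly5.1 CD4+ T cells and implanted PyMT tumours. TEST 1 (draining lymph node) and TEST 2 (non-draining lymph node) came from the same 4 pooled mice, and TEST 3 (non-draining) from 2 pooled mice. TEST 4 was a K14-TSLP +/tg, MMTV-PyMT +/tg, TSLPR +/- mouse on C57BL/6, TEST 5 a K14-TSLP +/tg, MMTV-PyMT +/tg, Rag1 -/- BALB/c host that had been 4 weeks old when given CD4+ T cells, and TEST 6 a K14-TSLP +/tg, MMTV-PyMT +/tg, Rag1 +/- BALB/c mouse. CONTROL 1 (a pool of 4 mice, draining node) and CONTROL 2 (1 mouse, draining and non-draining nodes) were TSLPR -/- hosts on C57BL/6 that received TSLPRKO CD4+ T cells and implanted PyMT tumours. CONTROL 3 was the spleen of a K14-TSLP +/tg, MMTV-PyMT +/tg, TSLPR -/- C57BL/6 mouse, and CONTROL 4 a Rag1 +/- BALB/c mouse with no transgene or tumour source of its own named. TEST 4, TEST 5, TEST 6 and CONTROL 4 came from draining and non-draining nodes of 1 mouse each, and CONTROL 3 from 1 mouse. TSLP is a cytokine of epithelial cells, TSLPR is its receptor, the K14 promoter drives the TSLP transgene in skin, and PyMT is a viral oncogene that gives mammary tumours under the MMTV promoter. According to the labels, all T cells were sorted from mice with terminal tumours and then stimulated in culture for 5 h with antibodies to CD3 and CD28, IL-2 and TSLP, so CONTROL cells met TSLP in culture too. Ages at collection were not given. Since 3 of the 4 CONTROL libraries, and no TEST library, held receptor-null T cells, and host, tumour, organ and strain varied with the group, a difference between TEST and CONTROL cannot be told apart from these.

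TEST 4 stood apart before any gene was examined. Ribosomal RNA rows took 1.18% of its summed FPKM, against 10.7% to 26.0% in the other 9 libraries, and its median-ratio size factor was 1.37, against 0.86 to 1.18. Summed FPKM ranged from 409452 to 535736 in TEST libraries and from 359703 to 432045 in CONTROL libraries. The T cell genes Cd3e, Cd3d, Cd3g, Cd2, Cd5, Cd28, Lck, Zap70 and Cd4 summed to 1266 to 2407 FPKM in TEST libraries and 1318 to 1769 FPKM in CONTROL libraries. A list of 16 proliferation genes summed to 239 to 487 FPKM in TEST and 203 to 431 FPKM in CONTROL libraries. Of these genes 15 had positive TEST minus CONTROL differences (median 0.88 on the log2 scale), beside 5406 of all 10743 genes tested. None of them was called, beside 0.0931% of all genes, and 7 had a limma unadjusted p under 0.05, beside 13.7% of all genes. Among markers of lipid-rich neighbours, 10 of 12 adipocyte genes were in the table and summed to 5.32 to 8.34 FPKM in TEST and 4.98 to 9.36 FPKM in CONTROL libraries, and Adipoq was at 0 in 9 libraries. The macrophage list (11 of 12 in the table) summed to 20.1 FPKM in TEST 4, 3.09 to 9.26 FPKM in the other 5 TEST libraries and 4.55 to 9.50 FPKM in CONTROL libraries, and the 8 B cell genes summed to 1.00 to 16.0 FPKM in TEST libraries, highest in TEST 4, and to 30.4 FPKM in CONTROL 2 and 1.74 to 3.63 FPKM in the other 3 CONTROL libraries. Of the epithelial and mammary list, 9 of 10 genes were in the table and summed to 10.7 to 17.2 FPKM in TEST and 2.70 to 17.5 FPKM in CONTROL libraries, with Krt14 at 0 in all 10. The 2 genes of it that were tested had positive differences (median 0.94), and Epcam had 4.08 to 12.5 FPKM in TEST and 1.21 to 7.60 FPKM in CONTROL libraries (limma adjusted p = 0.25). The part of these cells in the results was not tested. In bulk RNA, fewer cells of a kind and less RNA per cell cannot be told apart.

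Promoter sequences of the members were examined for motifs of SREBP and LXR, the regulators just described, and of the factors NF-Y and Sp1. RefSeq promoter windows on GRCm38.p6 (250 bases before to 50 after a start) were matched for 24 of the 31 members, and both strands were searched. A sterol regulatory element, the SREBP motif TCACNCCAC, was found in 1 member, Hmgcs1, and in 1.44% of 27025 genes. Its shorter form CACNCCAC, contained in the longer one, was found in 3 members (Acat2, Hmgcs1 and Insig1) and in 7.12% of genes. CCAAT, the letters read by NF-Y, was found in 19 members and 41.1% of genes, and GGGCGG, read by Sp1, in 19 members and 38.2% of genes. An LXR element of the DR4 kind, with the sites GGTNA and GGTCA in 1 direction and 5 bases between them, was found in 4 members (Srebf1, Fasn, Acsl3 and Abca1) and in 0.226% of genes. A match is a description of the letters and not evidence of binding. The sterol element of Hmgcs1 (chr13:119690189-119690247, + strand) and the shorter match of Acat2 farther from its start (chr17:12960874-12960931, - strand) read as follows 5′ to 3′ along the gene, with the motif in capitals.
Hmgcs1: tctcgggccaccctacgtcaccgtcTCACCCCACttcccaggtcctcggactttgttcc
Acat2: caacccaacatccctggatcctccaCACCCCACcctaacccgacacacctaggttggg
The 4 DR4 matches, at chr1:78657688-78657752 (Acsl3, + strand gene), chr4:53159923-53159987 (Abca1, - strand gene), chr11:60210614-60210678 (Srebf1, - strand gene) and chr11:120824733-120824797 (Fasn, - strand gene), all lay on the strand opposite to the gene, so that the capitals are the reverse complement of the element.
Acsl3: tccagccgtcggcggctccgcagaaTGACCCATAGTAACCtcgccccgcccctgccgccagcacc
Abca1: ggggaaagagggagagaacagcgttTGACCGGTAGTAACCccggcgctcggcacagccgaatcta
Srebf1: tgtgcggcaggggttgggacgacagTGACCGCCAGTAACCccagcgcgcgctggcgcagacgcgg
Fasn: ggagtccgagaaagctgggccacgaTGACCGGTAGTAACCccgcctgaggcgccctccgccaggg

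All branches were expressed in these T cells. The mean over 10 libraries ran from 0.68 FPKM for Scd1 to 27.0 FPKM for Acly, the enzyme that makes cytosolic acetyl-CoA from citrate, and the median of the 31 means was 8.14 FPKM. Sensors and transcription factors had the highest median level by role (16.9 FPKM), followed by efflux transporters (10.6 FPKM), sterol genes (7.74 FPKM), mevalonate genes (7.57 FPKM) and fatty acid genes (5.77 FPKM). Some paralogues kept their order in each library. Insig1 was above Insig2 in 10 of 10 libraries, by a ratio of 1.26 to 3.27, Abcg1 was above Abca1 in 10 of 10 by a ratio of 3.02 to 17.1, and the desaturase Scd2 was above Scd1 in 10 of 10. Srebf2, which favours sterol genes, was above Srebf1, which favours fatty acid genes, in 8 of 10 libraries. The exceptions were TEST 4 and TEST 5, with Srebf1 to Srebf2 ratios of 1.04 and 1.01.

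**Figure D1:**
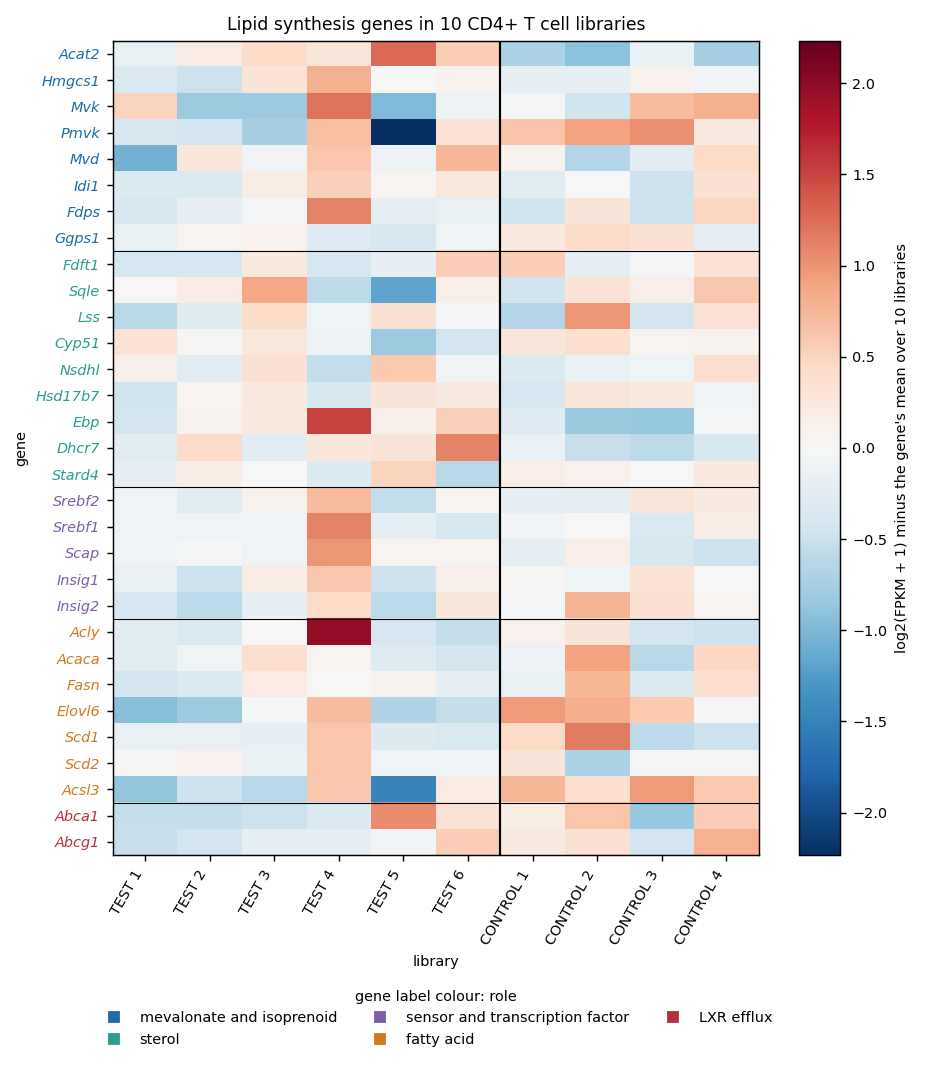
Each cell gives log2(FPKM + 1) of a gene (row) in a library (column) minus the mean of that gene over the 10 libraries, with TEST libraries left of the vertical line, CONTROL libraries right of it, and gene labels coloured by role. TEST 4 was the highest library for 11 of the 31 genes, beside 38.5% of all genes tested, and for 6 after median-ratio scaling, CONTROL 2 was the highest for 7, beside 19.8% of all genes, and no row separates the 6 TEST from the 4 CONTROL columns.

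The comparison of TEST with CONTROL asks whether lipid synthesis transcripts differ between the groups as labelled. It does not isolate the TSLP transgene, since CONTROL 3 also came from a K14-TSLP +/tg host. No member passed the test: 0 of 30 were called at a limma adjusted p under 0.05, beside 10 of all 10743 genes (0.0931%). Of the members, 12 had positive and 18 negative differences, and 8 and 22 in TPM, where 62.7% of all genes were negative. An unadjusted p under 0.05 was reached by 6 members, 3 in each direction, beside 13.7% of all genes. In FPKM as deposited, no member had TEST values all above or all below CONTROL, a pattern met by 1.48% of all genes in the higher and 1.96% in the lower direction. After median-ratio scaling, Scap (TEST from 15.5 FPKM, CONTROL up to 15.2 FPKM) and Dhcr7 (from 4.61 FPKM, up to 4.44 FPKM) narrowly had all TEST values above CONTROL. The share of all genes was not taken in that scaling. The median difference on the log2(FPKM + 1) scale was -0.02 for the 17 genes of the mevalonate and sterol branch and -0.25 for the 6 tested genes of the fatty acid branch, beside 0.00 for all genes tested. The 95% interval lay within a 2-fold change of FPKM + 1 in both directions for 19 members and reached beyond it for 11. A change of that size could thus not be judged for those 11 genes at this number of libraries. Fold changes here and below are of FPKM + 1, which understates those of FPKM in low genes. For low genes among the 19, a 2-fold change of FPKM may therefore still lie within the interval. Summed over members, the mevalonate and sterol branch had 134 ± 19.7 FPKM in TEST and 131 ± 7.95 FPKM in CONTROL libraries, and the fatty acid branch 64.6 ± 37.7 FPKM in TEST and 65.6 ± 10.4 FPKM in CONTROL libraries (SD, n = 6 and 4). TEST 4 alone had 141 FPKM in the fatty acid branch, 92.3 FPKM of it from the single gene Acly. The other 5 TEST libraries had 46.2 to 58.2 FPKM, against 54.9 to 78.5 FPKM in CONTROL libraries. After median-ratio scaling the branch had 103 FPKM in TEST 4, 43.0 to 62.3 FPKM in the other 5 TEST libraries and 57.3 to 66.7 FPKM in CONTROL libraries.

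**Figure D2:**
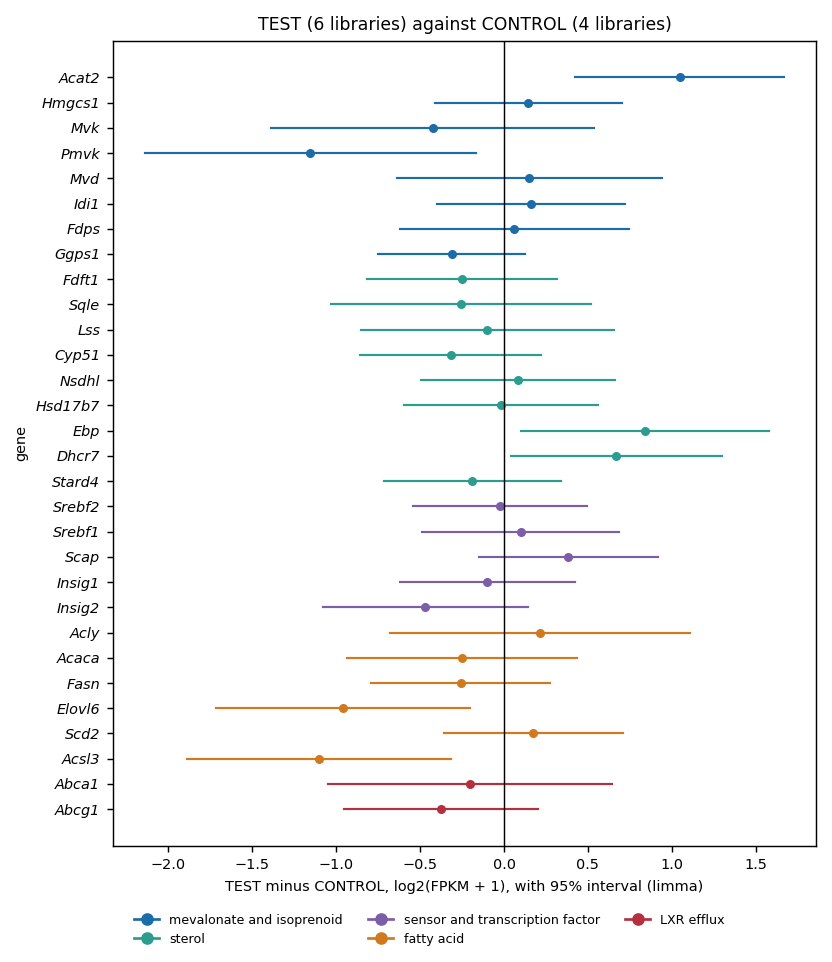
Points are TEST minus CONTROL differences on the log2(FPKM + 1) scale (horizontal axis) and lines their 95% intervals from limma, for the 30 tested genes in rows coloured by role. The intervals of Acat2, Ebp and Dhcr7 lie above 0 and those of Pmvk, Acsl3 and Elovl6 below it, and none of these 6 genes passed the adjusted test.

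In the mevalonate and isoprenoid arm, the 2 genes with the smallest p differed in opposite directions. Acat2, which condenses acetyl-CoA into acetoacetyl-CoA at the entry of the pathway, had 6.37, 9.45 and 18.8 FPKM as lowest, median and highest TEST values, against 4.05, 3.37, 6.43 and 3.96 FPKM in CONTROL 1 to 4. In 5 of 6 TEST libraries it was above each CONTROL library, and TEST 1 fell just under CONTROL 3. The Acat2 difference was 1.05 ± 0.29 (SE) on the log2 scale, 2.07-fold, with limma adjusted p = 0.17. Pmvk, phosphomevalonate kinase, had 0.17, 3.19 and 7.74 FPKM in TEST libraries, against 7.54, 9.28, 10.2 and 5.34 FPKM in CONTROL 1 to 4. Its lowest value was in TEST 5 and its highest TEST value in TEST 4, and 4 of 6 TEST libraries were below every CONTROL library. The Pmvk difference was -1.15 ± 0.46 (SE), a 2.22-fold lower level, with limma adjusted p = 0.30, and -0.80 without TEST 5. Ggps1, which makes geranylgeranyl diphosphate for protein prenylation, had 13.9, 16.5 and 19.5 FPKM in TEST, against 21.1, 24.4, 23.2 and 15.4 FPKM in CONTROL libraries. CONTROL 4, the BALB/c control, lay among the TEST values of Ggps1, and the difference was -0.31 ± 0.20 (SE; limma adjusted p = 0.52). Ggps1 shares 5.44% of its exon bases with Arid4b on the other strand, and since strand use is not given, its reads and those of Arid4b cannot be told apart there. Fdps, which makes farnesyl diphosphate, had 7.99, 9.25 and 23.9 FPKM in TEST and 7.45, 13.2, 7.41 and 15.0 FPKM in CONTROL libraries, with the highest value in TEST 4 and overlap among the rest. It shares 26.7% of its exon bases with the gene model Gm43738 on the same strand. Fdps was below Ggps1 in 9 of 10 libraries, and only TEST 4 had the reverse order, at a ratio of 1.65. The other members, Hmgcs1 (HMG-CoA synthase), Mvk (mevalonate kinase), Mvd (mevalonate diphosphate decarboxylase) and Idi1 (isopentenyl diphosphate isomerase), had differences of 0.15, -0.43, 0.15 and 0.16, each with an interval that included 0.

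In the sterol arm, Ebp and Dhcr7, which act late in the conversion of lanosterol to cholesterol, had the smallest p. Ebp, a sterol isomerase, had 5.55, 8.93 and 24.3 FPKM in TEST, against 6.22, 3.96, 3.92 and 7.60 FPKM in CONTROL 1 to 4. In 5 of 6 TEST libraries Ebp was above all CONTROL libraries, TEST 1 was lower than 2 of them, and TEST 4 was the highest. Its difference was 0.84 ± 0.34 (SE), 1.79-fold (limma adjusted p = 0.32), and 0.60 without TEST 4. Dhcr7, the reductase that completes cholesterol, had 4.24, 6.51 and 12.5 FPKM in TEST, against 4.59, 3.38, 3.14 and 3.88 FPKM in CONTROL libraries, and 4 of 6 TEST libraries were above all CONTROL libraries. After median-ratio scaling all 6 TEST libraries were narrowly above CONTROL for Dhcr7, from 4.61 FPKM against at most 4.44 FPKM. The share of all genes so separated was not taken in that scaling. The Dhcr7 difference in FPKM as deposited was 0.67 ± 0.29 (SE), 1.59-fold, with limma adjusted p = 0.34. Cyp51, the lanosterol demethylase, had 5.96, 10.9 and 14.2 FPKM in TEST and 13.7, 14.8, 11.8 and 11.9 FPKM in CONTROL libraries, and its 2 lowest values were in the BALB/c libraries TEST 5 and TEST 6. Fdft1, squalene synthase, had 7.39, 8.12 and 15.2 FPKM in TEST and 15.1, 8.49, 9.74 and 12.9 FPKM in CONTROL libraries, overlapping widely. It shares 18.3% of its exon bases with Ctsb on the opposite strand, so its level is uncertain. Differences of the remaining genes ran from -0.26 for the squalene epoxidase Sqle to 0.08 for Nsdhl, a sterol demethylation enzyme, with Lss, lanosterol synthase, Hsd17b7, a sterol ketoreductase, and Stard4, a carrier of cholesterol within the cell, between them. Direction along the pathway was thus mixed: in the 17 genes of both arms 8 differences were positive and 9 negative.

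**Figure D3:**
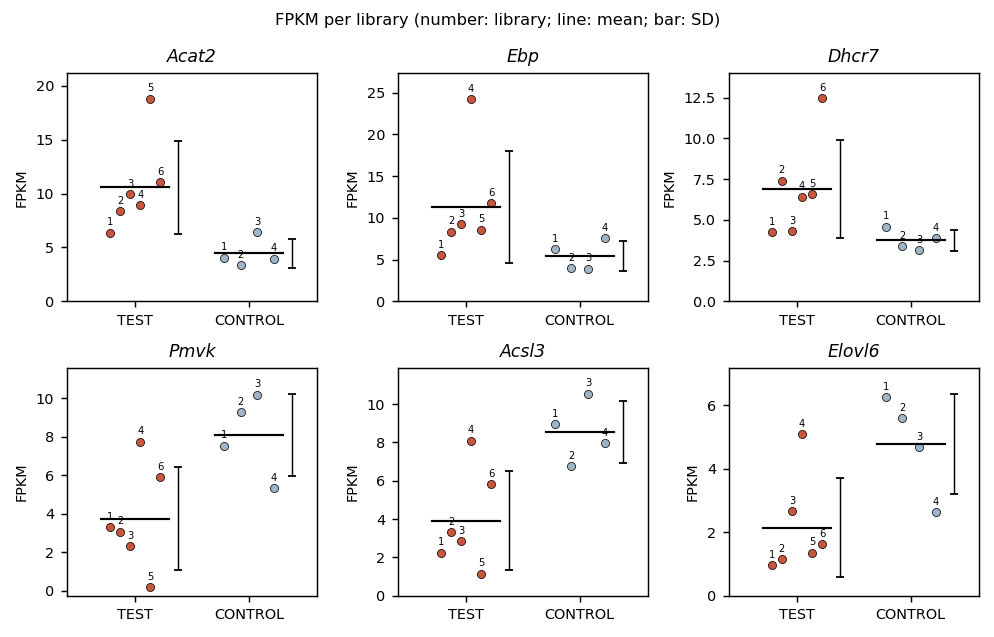
FPKM (vertical axis) of the 6 genes with an unadjusted p under 0.05, in the TEST libraries (left of each panel, numbered) and the CONTROL libraries (right), with a line at the mean and a bar of 1 SD. In Acat2, Ebp and Dhcr7 most TEST points lie above CONTROL, in Pmvk, Acsl3 and Elovl6 most lie below, and in each panel at least 1 TEST library lies among the CONTROL values.

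In FPKM as deposited, sensors and transcription factors had TEST and CONTROL values that overlapped for each gene, with TEST 4 often the highest. Srebf2 had 16.7, 24.7 and 41.4 FPKM in TEST and 21.9, 21.3, 30.3 and 29.0 FPKM in CONTROL libraries, with a difference of -0.02 ± 0.24 (SE; 95% interval -0.54 to 0.50). Srebf1 had 14.7, 18.1 and 43.0 FPKM in TEST and 18.5, 19.3, 15.3 and 22.03 FPKM in CONTROL libraries, with a difference of 0.10 ± 0.27 (SE; 95% interval -0.49 to 0.69). For both genes TEST 4 was the highest of all libraries in FPKM as deposited, and the other TEST values overlapped CONTROL. After median-ratio scaling TEST 4 was still the highest for Srebf1 (31.5 FPKM), whereas for Srebf2 it had 30.3 FPKM, against 31.6 FPKM in CONTROL 3. Scap, the escort of SREBP, had 15.2, 16.4 and 32.9 FPKM in TEST and 13.8, 17.9, 12.4 and 11.3 FPKM in CONTROL libraries (difference 0.38 ± 0.25, SE). Insig1, itself a target of SREBP, had 11.0, 15.4 and 24.5 FPKM in TEST and 16.0, 14.7, 19.6 and 15.8 FPKM in CONTROL libraries. Insig2, the other retention protein, had 3.93, 5.11 and 9.07 FPKM in TEST and 6.37, 11.6, 8.54 and 6.75 FPKM in CONTROL libraries. In 4 of 6 TEST libraries Insig2 was below each CONTROL library, and the difference was -0.47 ± 0.28 (SE; limma adjusted p = 0.49). The intervals of all 5 genes included 0 in FPKM as deposited. After median-ratio scaling Scap was 1 of 7 members with a limma unadjusted p under 0.05, beside 1721 of all genes tested, without being called. Its TEST values, from 15.5 FPKM, then lay just above those of CONTROL, up to 15.2 FPKM. How many of all genes separate so in that scaling was not taken.

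In the fatty acid branch, Acsl3 and Elovl6 had the smallest p, both in the lower direction. Acsl3, which activates long-chain fatty acids as acyl-CoA, had 1.16, 3.10 and 8.10 FPKM in TEST, against 8.95, 6.75, 10.6 and 7.95 FPKM in CONTROL 1 to 4. In 5 of 6 TEST libraries it was below all CONTROL libraries, and TEST 4, at 8.10 FPKM, lay among them. The Acsl3 difference was -1.10 ± 0.37 (SE; 95% interval -1.89 to -0.32), 2.15-fold lower, with limma adjusted p = 0.24, and -1.31 without TEST 4. It shares 5.60% of its exon bases with Utp14b on the same strand. Elovl6, which extends palmitate to stearate, had 0.96, 1.49 and 5.08 FPKM in TEST, against 6.25, 5.59, 4.68 and 2.64 FPKM in CONTROL libraries. In 4 of 6 TEST libraries it was under every CONTROL library, TEST 3 was close to CONTROL 4, and TEST 4 lay within the CONTROL range. The Elovl6 difference was -0.96 ± 0.35 (SE), 1.94-fold lower, with limma adjusted p = 0.28, and -1.17 without TEST 4. When libraries were weighted by their fit to the model (limma array weights), Acsl3 (-1.35, adjusted p = 0.0197) and Elovl6 (-1.16, adjusted p = 0.0474) passed, in a setting that called 334 of all genes. Over all alternatives tried, the adjusted p of Acsl3 ran from 0.0197 to 0.687 and that of Elovl6 from 0.0474 to 0.712.

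The enzymes at the head of the branch differed less, each with an interval that included 0. Acly had 15.3, 18.5 and 92.3 FPKM in TEST, against 24.3, 27.7, 16.5 and 16.2 FPKM in CONTROL libraries. TEST 4 was far above the other 9 libraries, and after median-ratio scaling it still had 67.6 FPKM, against 13.9 to 24.5 FPKM in the other 5 TEST and 16.8 to 23.6 FPKM in the CONTROL libraries. Fasn, fatty acid synthase, had 9.63, 12.3 and 15.1 FPKM in TEST and 11.5, 22.7, 10.4 and 17.0 FPKM in CONTROL libraries, a difference of -0.26 ± 0.25 (SE). Acaca, acetyl-CoA carboxylase, differed by -0.25 ± 0.32 (SE). CONTROL 2 was the highest library for Fasn, Acaca and Scd1, and also for B cell genes, whose part in these values was not tested. Scd2, the main desaturase here, had 9.91, 11.0 and 17.5 FPKM in TEST and 13.7, 6.45, 10.9 and 11.4 FPKM in CONTROL libraries, a difference of 0.18 ± 0.25 (SE). Scd1 had 0.23, 0.38 and 1.39 FPKM in TEST and 1.11, 2.49, 0.04 and 0.12 FPKM in CONTROL libraries, so it was near or under 1 FPKM everywhere except TEST 4, CONTROL 1 and CONTROL 2.

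Of the efflux transporters, Abca1, which loads cholesterol on lipid-poor apolipoprotein, had 1.18, 1.40 and 5.60 FPKM in TEST and 2.56, 3.84, 0.76 and 3.63 FPKM in CONTROL libraries. Abcg1, which passes cholesterol to lipoprotein particles, had 12.2, 15.1 and 26.5 FPKM in TEST and 20.7, 22.8, 13.0 and 31.3 FPKM in CONTROL libraries. The groups overlapped for both, and the differences were -0.20 ± 0.40 and -0.38 ± 0.27 (SE). Their levels by strain are given further on.

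**Figure D4:**
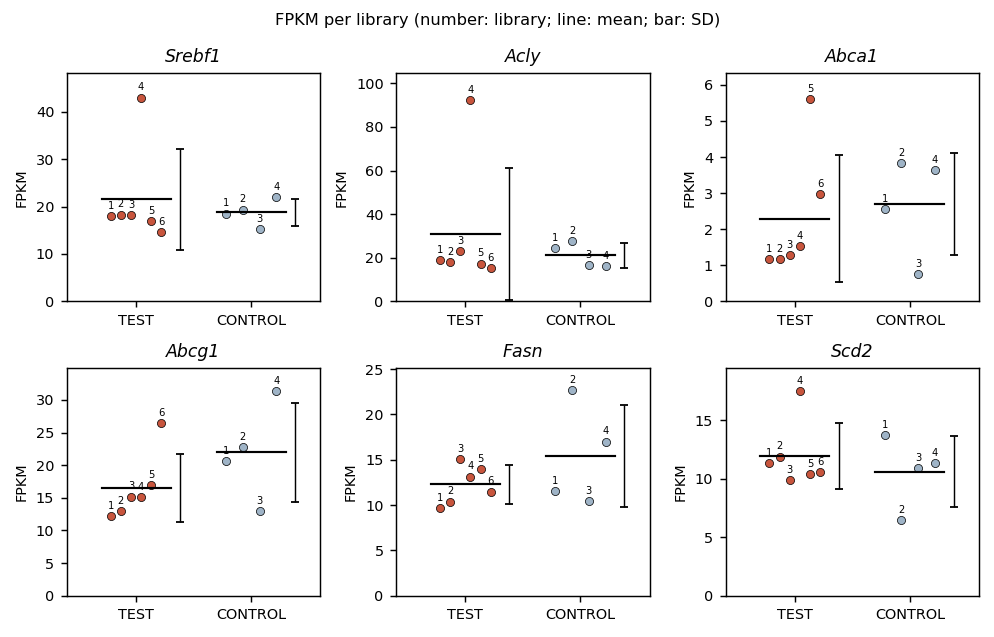
FPKM (vertical axis) of 6 further genes in the TEST libraries (left of each panel, numbered) and CONTROL libraries (right), with a line at the mean and a bar of 1 SD. TEST 4 stands alone above the rest in Srebf1 and Acly and is the highest library in Scd2, TEST 5 is the highest in Abca1, and CONTROL 2 in Fasn.

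Of the 51 further genes of sterol synthesis, fatty acid synthesis, SREBP processing and LXR or sterol handling, 41 were tested, 0 were called, 29 had positive and 12 negative differences, and 4 reached an unadjusted p under 0.05, all positive, beside 0.0931% of all genes called and 13.7% with such a p. Arl4c, a small GTPase induced by LXR, had 88.1, 101 and 189 FPKM as lowest, median and highest TEST values, against 51.0 to 72.5 FPKM in CONTROL libraries, a difference of 0.90 ± 0.25 (SE; limma adjusted p = 0.17). No TEST library overlapped CONTROL for Arl4c, as for 1.48% of all genes in the higher direction. Rxra, the partner of LXR, had a difference of 0.85 ± 0.28 (SE; limma adjusted p = 0.23). The other 2 were Acsl5 (0.62), a paralogue of Acsl3 with the opposite sign, and Elovl1 (0.52), which extends long acyl chains, with limma adjusted p of 0.28 and 0.30. Like Arl4c, Elovl1 was without overlap, at 17.95 to 34.91 FPKM in TEST and 14.88 to 17.17 FPKM in CONTROL libraries.

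Strain, transfer and tumour were alike in 1 subset of the design, the transfer into implanted-tumour hosts on C57BL/6. TEST 1, TEST 2 and TEST 3 were set against CONTROL 1 and CONTROL 2. The host transgene and donor receptor still changed together, and TEST 1 and TEST 2 shared their mice. Nodes and pool sizes differed too, with TEST 2 and TEST 3 from non-draining nodes and no CONTROL library from these alone. Here all 31 members were tested (1 FPKM in at least 2 libraries), 0 were called, beside 3 of 10816 genes (0.0277%), and 8 had an unadjusted p under 0.05, beside 17.6% of genes. Groups did not overlap for 1 member in the higher direction (Acat2), beside 7.49% of genes, and for 10 in the lower direction, beside 29.7% of genes, so the shares of members were near those of all genes. The median of all genes was itself shifted to -0.25 in this subset, the medians of the branches were -0.02 (mevalonate and sterol) and -0.46 (fatty acid), and 23 of 31 members were negative. Median-ratio scaling, which sets each library by its median ratio to the average library, brought the median of all genes to 0.01, that of the mevalonate and sterol branch to 0.17 and that of the fatty acid branch to -0.19, and turned the count to 18 positive and 13 negative. TPM moved the median of all genes to -0.44. So directions of single members near the shift depended on the scaling. Acat2, Pmvk, Acsl3 and Elovl6 kept theirs in each scaling tried, but a kept direction was not particular to them. Over this subset's alternatives, Abca1, Abcg1, Acly, Dhcr7, Ebp, Fasn, Ggps1, Insig2, Nsdhl, Scd1 and Sqle did not change sign either.

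For Pmvk the implanted TEST libraries had 3.30, 3.07 and 2.30 FPKM, against 7.54 and 9.28 FPKM in the CONTROL libraries (-1.28 ± 0.30, SE; limma adjusted p = 0.17). For Acsl3 they had 2.25, 3.33 and 2.87 FPKM, against 8.95 and 6.75 FPKM (-1.21 ± 0.31, SE; limma adjusted p = 0.18). For Elovl6 they had 0.96, 1.15 and 2.67 FPKM, against 6.25 and 5.59 FPKM in CONTROL (-1.47 ± 0.38, SE; limma adjusted p = 0.18). These genes and Acat2 (6.37, 8.40 and 9.98 FPKM, against 4.05 and 3.37 FPKM; 0.96 ± 0.30, SE) thus separated the groups without reaching the threshold. Abca1 had 1.18, 1.18 and 1.27 FPKM in the implanted TEST libraries and 2.56 and 3.84 FPKM in CONTROL (-0.91 ± 0.33, SE), and Abcg1 12.2, 13.0 and 15.2 FPKM in TEST and 20.7 and 22.8 FPKM in CONTROL (-0.66 ± 0.23, SE). After median-ratio scaling their differences were -0.71 and -0.38, with unadjusted p of 0.0529 and 0.111. Scd1 (-0.97) and Insig2 (-0.76) were the other members with an unadjusted p under 0.05. Without CONTROL 1, which leaves CONTROL 2 alone in its arm and assumes that it varies like TEST, 907 genes and still 0 members were called. The smallest member p was then that of Pmvk (limma adjusted p = 0.0559), whose adjusted p over the alternatives reached 0.54.

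**Figure D5:**
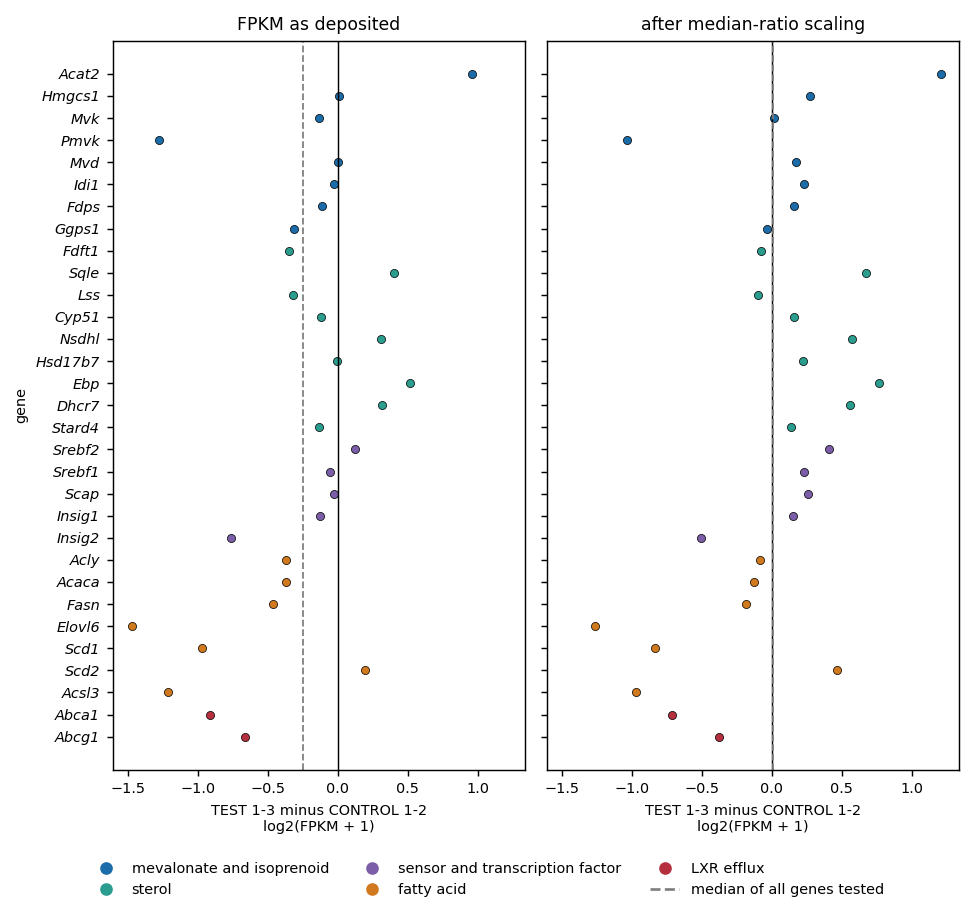
TEST 1-3 minus CONTROL 1-2 on the log2(FPKM + 1) scale for each of the 31 genes, with FPKM as deposited (left) and after median-ratio scaling (right), and a dashed line at the median of all genes tested (-0.25 and 0.01). Most sterol genes sit right of the dashed line in both panels, and Pmvk (-1.28 and -1.03), Elovl6 (-1.47 and -1.26) and Acsl3 (-1.21 and -0.97) are the 3 lowest genes in each.

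Splitting libraries by the receptor label of the T cells (CONTROL 1 to 3, TSLPR-null, against the other 7) moved CONTROL 4 across and otherwise repeated the contrast above with the sign turned, so it shares libraries with it. No member was called, nor was any gene (0%), and 6 members had an unadjusted p under 0.05, beside 7.55% of genes. Elovl6 averaged 5.51 ± 0.79 FPKM in TSLPR-null and 2.21 ± 1.44 FPKM in the other T cells (SD, n = 3 and 7), a difference of 1.12 ± 0.36 (SE; limma adjusted p = 0.58). Pmvk (1.22), Acsl3 (0.98) and Ggps1 (0.46) were also positive, and Ebp (-0.94) and Acat2 (-0.85) negative, each with limma adjusted p = 0.64. In FPKM as deposited, Ggps1 was the 1 member without overlap, with 21.1, 24.4 and 23.2 FPKM in TSLPR-null cells, above 13.9 to 19.5 FPKM in the others. Such separation was met by 2.05% of all genes in the higher direction and, with no member, by 0.791% in the lower. Separation depended on the scaling. After median ratios Ggps1 overlapped (20.4, 20.7 and 24.3 FPKM in TSLPR-null cells, 21.9 FPKM in TEST 2) and its limma unadjusted p was no longer under 0.05. Elovl6 and Pmvk then lay above the other T cells, and Ebp and Idi1 below them. The share of all genes was not taken in that scaling.

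Strain was examined with the group held equal. No BALB/c library had an implanted tumour, whereas all C57BL/6 libraries except TEST 4 and CONTROL 3 did, so strain cannot be told apart from the kind of tumour. None of the 30 members was called, beside 64 genes (0.596%), 3 had an unadjusted p under 0.05, beside 9.07% of genes, and 0 were without overlap, beside 1.28% (higher in BALB/c) and 1.74% (lower) of genes. Both efflux transporters were among the 3. Abca1 had 5.60, 2.98 and 3.63 FPKM in the BALB/c libraries TEST 5, TEST 6 and CONTROL 4, and 0.76, 1.27 and 3.84 FPKM as lowest, median and highest values in C57BL/6 libraries. Abcg1 had 16.9, 26.5 and 31.3 FPKM in BALB/c, and 12.2, 15.1 and 22.8 FPKM in C57BL/6 libraries. For both, CONTROL 2 was the highest C57BL/6 library and reached into the BALB/c range. The differences were 0.95 ± 0.35 for Abca1 (limma adjusted p = 0.42) and 0.64 ± 0.24 for Abcg1 (limma adjusted p = 0.44), and both stayed positive in each alternative tried. Cyp51 was lower in BALB/c, with 8.68 ± 2.98 FPKM against 12.8 ± 1.65 FPKM in C57BL/6 (SD, n = 3 and 7; -0.52 ± 0.24, SE; limma adjusted p = 0.54). For Cyp51 the limma unadjusted p was under 0.05 in FPKM as deposited and in no other scaling tried. The BALB/c library CONTROL 4 (11.86 FPKM) was level with the C57BL/6 library CONTROL 3 (11.75 FPKM). The mevalonate and sterol branch had a median strain difference of 0.20 and the fatty acid branch one of -0.16, beside -0.01 for all genes. Of the wider pathway, Acss2, which makes acetyl-CoA from acetate, had 0.33 ± 0.33 FPKM in BALB/c and 4.18 ± 2.77 FPKM in C57BL/6 libraries (limma adjusted p = 0.12). Whether the TEST minus CONTROL difference itself depended on strain was tested as an interaction: 0 members and 0 genes (0%) were called, and 0 members had an unadjusted p under 0.05, beside 2.07% of genes, with 1 CONTROL library in the BALB/c arm and SEs of 0.45 to 1.02.

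Transferred T cells (TEST 1, 2, 3 and 5 and CONTROL 1 and 2) were set against endogenous ones with the group held equal. All transferred libraries except TEST 5, and no endogenous library, had implanted tumours, so origin and kind of tumour cannot be told apart here. No member and no gene (0%) was called, and 3 members had an unadjusted p under 0.05, all lower in transferred cells, beside 10.5% of genes. Mvk averaged 1.13 ± 0.93 FPKM in transferred and 3.44 ± 1.54 FPKM in endogenous cells, Acsl3 4.22 ± 2.99 and 8.10 ± 1.94 FPKM, and Srebf2 21.8 ± 3.18 and 31.6 ± 6.77 FPKM, transferred first in each case (SD, n = 6 and 4). Their differences were -1.04 ± 0.37, -0.81 ± 0.31 and -0.52 ± 0.21 (SE; limma adjusted p 0.39 to 0.42). All genes had a median of -0.13, and 21 of the 30 members were negative. After median-ratio scaling the median of all genes was 0.00, 20 members were negative and Srebf2 no longer had an unadjusted p under 0.05. No member was without overlap, beside 0.363% (higher) and 1.09% (lower) of genes.

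TEST 1 and TEST 2 compare the draining with the non-draining nodes of the same 4 pooled mice, with 1 library each and no test. Members differed little: the median absolute log2 difference was 0.17 for the 30 tested members, beside 0.25 for all genes. The 2 largest differences were in low mevalonate genes of opposite sign. Mvk had 2.79 FPKM in the draining and 0.52 FPKM in the non-draining nodes (1.32), and Mvd 0.60 and 2.94 FPKM (-1.30). Differences at least as large were found in 1.21% and 1.28% of all genes tested. Srebf1 (18.1 and 18.3 FPKM), Scap (15.3 and 15.9 FPKM) and Acly (18.99 and 17.99 FPKM) were nearly level between the nodes.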

How the data were processed

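RNA from CD4+ T cells (6 TEST and 4 CONTROL libraries) was sequenced on an Illumina HiSeq by a service company and aligned to mm10 with Bowtie. BWA and RSEM appear as well in the submitters' processing notes, with no version or role. Values were deposited as FPKM, computed by the authors for 17457 genes, and ribosomal RNA rows are among them, so a library with little of it has higher FPKM elsewhere. Strand use and RNA selection are not given in the sources used here. The table holds no counts, and absolute depth is unknown. Spacing of low values put the depth of 8 libraries at 0.65 to 1.20 times that of TEST 1 and did not settle TEST 4. The study's text calls the cells freshly sorted, whereas the labels name stimulation in culture and are followed.

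Differences were fitted with limma 3.58.1 (R 4.3.3, trend on, robust off, two-sided) on log2(FPKM + 1), which understates changes of low genes. A gene entered if 4 libraries (2 in the implanted subset) reached 1 FPKM, and calls were made under 0.05 after Benjamini-Hochberg adjustment across all genes tested. Intervals are at 95%. The published contrast used a count-based test that the deposited unit does not allow. Nothing says that libraries came from separate cultures, TEST 1 and TEST 2 share mice, and p-values measure the spread between these libraries.

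Members and lists were chosen with earlier results of these data known. Values in all libraries (or lowest, median and highest for 6 TEST libraries) are given for Srebf1, Srebf2, Insig1, Insig2, Scd1, Scd2, Fasn, Abca1, Abcg1 and, in each role, the 2 genes with the smallest p between TEST and CONTROL and the 2 with the highest mean. Alternatives covered pseudocount, filter, scaling (TPM, median ratios, quantiles, no ribosomal RNA rows), library weights, covariates, subsets of libraries and leaving out each library. Promoters were RefSeq windows on GRCm38.p6, and shared exons were taken from GENCODE on the same assembly. Some pathway genes were not analysed here.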

Additional observations from a re-analysis of the deposited data

Results flagged for a closer look

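Within each group, the highest and lowest library of each of the 31 genes was examined for its gap to the nearest other library relative to the range of the group. Of 62 such groups 6 stood out, and all 6 were high values of TEST 4: Fdps at 23.9 FPKM, Srebf1 at 43.0 FPKM, Scap at 32.9 FPKM, Acly at 92.3 FPKM, Scd1 at 1.39 FPKM and Scd2 at 17.5 FPKM. A rate of 1 in 20 would flag 3.1 independent groups, but these groups share libraries, so 3.1 is no yardstick here. TEST 4 was the highest library for 38.5% of all genes tested in FPKM as deposited. The rule was run on the 31 genes only, so its share over all genes is not known. TEST 4 is also the library with 1.18% ribosomal RNA, and its values are lower by its size factor of 1.37 after median-ratio scaling, which leaves 17.5 FPKM for Fdps, 31.5 FPKM for Srebf1, 24.1 FPKM for Scap, 67.6 FPKM for Acly, 1.02 FPKM for Scd1 and 12.8 FPKM for Scd2. After this scaling TEST 4 was no longer the highest TEST library for Scd2, for which TEST 2 had 13.8 FPKM. The part of ribosomal RNA content in these values was not tested beyond that scaling.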

How the results depend on the processing

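In 5 comparisons (27 alternatives for TEST against CONTROL, 11 for the implanted subset and 17 for each of the others), no member was called except with library weights (2 members, Acsl3 and Elovl6, in TEST against CONTROL). No alternative was run for the interaction of group and strain. The number of all genes called between TEST and CONTROL (10) was less stable: 20 with a pseudocount of 0.1 and 0 with 5, 5 with a minimum of 5 FPKM, 1 without a filter, 22 with TPM, 21 with median ratios, 24 with quantiles, 25 without ribosomal RNA rows, 334 with library weights, 0 with TEST 1 and TEST 2 averaged, 1 without the pools of 4 mice, 0 without the spleen library, 28 with strain, 68 with strain and origin, and 0 with a proliferation score as covariate, which also moved the median of the mevalonate and sterol branch to 0.25. The cause was not tested. The TSLPR-null count (0) was 1 with a pseudocount of 0.1 and 3 with TPM, and the strain count (64) was 41 with a minimum of 5 FPKM. The implanted count (3) was 1 with a minimum of 5 FPKM, 6 with TPM and 5 with median ratios or without ribosomal RNA rows, and the mevalonate and sterol median moved to -0.19 with TPM and 0.17 with median ratios. Leaving out 1 library at a time gave 0 to 84 genes between TEST and CONTROL (84 without TEST 4, 52 without CONTROL 1, 31 without TEST 6, 2 without TEST 1 and 0 without TEST 2, CONTROL 2 or CONTROL 3), 2 to 907 in the implanted subset (907 without CONTROL 1), 27 to 85 for strain, 0 to 15 for origin and 0 to 6 for the receptor. The median of the mevalonate and sterol branch then ran from -0.12 to 0.06, -0.14 to 0.11, 0.028 to 0.26, -0.31 to -0.0097 and -0.17 to 0.01 in the same 5 comparisons, and that of the fatty acid branch from -0.47 to -0.04, -0.90 to -0.29, -0.31 to -0.03, -0.34 to 0.23 and -0.06 to 0.36. No paired analysis of TEST with CONTROL was possible, because by the mouse numbers in the labels no TEST library shared mice with a CONTROL library. The replicate numbers used here only name the libraries. With 4 CONTROL libraries, 11 of 30 intervals reached beyond a 2-fold change of FPKM + 1.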
